A study of Mus musculus with 10 samples.

Results

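Cholesterol synthesis and its control by the sterol regulatory element-binding proteins (SREBPs) were followed through 28 listed genes in portal tracts of 1-week-old mice. The genes were chosen by their known function and comprise 8 enzymes of the early pathway, 11 enzymes of the late pathway, 5 genes of SREBP control and 4 genes of sterol uptake, transport and storage. Each gene was represented by its probe set with exactly 1 gene symbol, or, where it had several, by the brightest of them on average. Of the 28 genes, 25 were measured in this way (6 early, 11 late, 5 control and 3 transport genes), out of 22180 genes in all. Acat2, Idi1 and Soat2 had no such probe set and were not analysed here.

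The samples were 5 Jag1+/-Rfng+/- and 5 control samples, and each held RNA of 12 to 20 portal tracts laser-captured from frozen liver sections. Jag1+/-Rfng+/- animals carry 1 altered copy each of Jag1, a Notch ligand gene, and of Rfng, a gene of a fringe enzyme that modifies Notch. The strain is given as C57Bl/6J for the controls only, and neither the kind of mutant allele nor the genotype behind the word control is given in the sources used here. The labels name no treatment and do not say whether each sample came from a separate animal, so p-values may reflect only technical spread between samples.

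Cholesterol is built from acetyl units, which the early enzymes turn into isoprenoids by way of mevalonate. The late enzymes join isoprenoids into squalene, close its rings to lanosterol and trim lanosterol to cholesterol. When sterols run low in the endoplasmic reticulum, SCAP escorts SREBP to the Golgi, where proteases release its active part, and when sterols are plentiful the INSIG proteins hold SCAP back. The active SREBP switches on most genes of the pathway, often together with the CCAAT-binding factor NF-Y, and in liver the hepatocytes do most of this synthesis.

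Promoter sequences were available from RefSeq (GRCm38.p6) for 23 of the 28 genes, as windows from 250 bases before to 50 after each annotated start. Below are the 250 bases before the start of 5 enzyme genes. They are Msmo1, Nsdhl and Lss, late enzymes with large differences, Hmgcs1, an early enzyme with a small one, and Ggps1, the enzyme gene with a lower mean in Jag1+/-Rfng+/-. Capitals mark the letters CCAAT on either strand (read as ATTGG on the other strand) and the sterol element letters TCACNCNAC.
Msmo1, chr8:64733579-64733828, minus strand: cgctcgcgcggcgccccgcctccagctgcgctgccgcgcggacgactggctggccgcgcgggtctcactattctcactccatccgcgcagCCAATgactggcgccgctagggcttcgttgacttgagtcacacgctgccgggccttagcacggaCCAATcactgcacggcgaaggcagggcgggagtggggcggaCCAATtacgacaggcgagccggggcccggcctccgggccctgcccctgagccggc
Nsdhl, chrX:72918271-72918520, plus strand: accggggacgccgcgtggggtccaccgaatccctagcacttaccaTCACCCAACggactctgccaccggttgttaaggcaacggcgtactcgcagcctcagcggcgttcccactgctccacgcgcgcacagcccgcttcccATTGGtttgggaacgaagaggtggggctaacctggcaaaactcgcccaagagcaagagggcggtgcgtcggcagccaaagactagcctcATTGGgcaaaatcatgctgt
Lss, chr10:76531355-76531604, plus strand: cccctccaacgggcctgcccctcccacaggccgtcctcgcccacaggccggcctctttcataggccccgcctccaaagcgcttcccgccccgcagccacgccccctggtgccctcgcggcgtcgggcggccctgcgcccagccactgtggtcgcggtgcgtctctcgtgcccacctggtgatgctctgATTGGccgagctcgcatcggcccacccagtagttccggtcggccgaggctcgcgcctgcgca
Hmgcs1, chr13:119690101-119690350, plus strand: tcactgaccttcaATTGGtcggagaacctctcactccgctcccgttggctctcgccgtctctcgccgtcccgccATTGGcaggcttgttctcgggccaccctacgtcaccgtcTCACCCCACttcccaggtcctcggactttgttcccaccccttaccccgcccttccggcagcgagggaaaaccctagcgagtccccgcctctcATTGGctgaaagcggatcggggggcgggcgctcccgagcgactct
Ggps1, chr13:14063489-14063738, minus strand: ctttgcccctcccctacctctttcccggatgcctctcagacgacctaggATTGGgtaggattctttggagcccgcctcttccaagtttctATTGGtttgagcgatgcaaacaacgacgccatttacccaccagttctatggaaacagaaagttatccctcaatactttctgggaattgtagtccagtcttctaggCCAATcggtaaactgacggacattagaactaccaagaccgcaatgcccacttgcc
The letters CCAAT occurred in the window of 21 of the 23 genes (91.3%), against 41.1% of all genes with a window and 42% of those whose array level was above the median gene. The GC box letters GGGCGG occurred in 20 of the 23 (87%), against 38.2% of all genes and 67.3% of those above the median level. The sterol element letters TCACNCCAC were found in Hmgcs1 alone among the 23 (1.44% of all genes), 137 bases before its start. The looser form TCACNCNAC, which includes the stricter one, was found in Hmgcs1 and in Nsdhl (3.15% of all genes), in Nsdhl 205 bases before its start. All motifs were searched on both strands. Msmo1, Hmgcs1 and Ggps1 each held CCAAT 3 times in the stretch shown, Nsdhl 2 times and Lss 1 time. Any link of these letters to the differences was not tested.

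The median log2 level of an array was 3.22 to 3.30, and the number of arrays limits the precision. Jag1+/-Rfng+/- replicate 5, whose sample name ends in excl, stood apart, its highest correlation with any array being 0.963, where no pair of the remaining 9 fell below 0.969. The targeted gene Rfng averaged 4.36 ± 0.16 in Jag1+/-Rfng+/- and 4.82 ± 0.20 in controls (log2 level, SD, n = 5 each), with no overlap (p = 0.00794 in a two-sided exact permutation test, the lowest possible with 5 and 5 arrays). Jag1 averaged 4.39 ± 0.63 in Jag1+/-Rfng+/- and 5.72 ± 0.93 in controls, with overlap (exact permutation p = 0.0556, two-sided). Genes that are absent read between 1.82 and 2.91, judged from Y-linked genes on the 2 arrays of each group with high Xist and from Xist on the others. The hepatocyte gene Ttr read 12.15 to 12.43 in Jag1+/-Rfng+/- and 12.38 to 12.47 in controls, far above this range, so the captured tracts held hepatocyte RNA. Of the bile duct (cholangiocyte) list used below, Onecut1 read 6.39 to 7.04 in Jag1+/-Rfng+/- and 7.06 to 7.72 in controls. Cdh1, with the highest mean of that list, read 8.17 to 8.79 in Jag1+/-Rfng+/- and 8.25 to 8.90 in controls. It differed by -0.05 log2, against a median of -0.75 over the 10 measured genes of the list. Cftr, named after its values were seen, read within or below the range of absent genes on all 10 arrays.

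All 11 late enzyme genes had a higher mean in Jag1+/-Rfng+/- tracts than in control tracts, by 0.09 to 0.78 on the log2 scale with a median of 0.39. Without Jag1+/-Rfng+/- replicate 1 the late median was 0.25. The median over all 22180 genes was -0.01, and 48.5% of them were higher in Jag1+/-Rfng+/-. With limma and Benjamini-Hochberg adjustment over all genes, 0 of the 25 cholesterol genes passed an adjusted p of 0.05 (background 0.00902%), and their lowest adjusted p was 0.597. At an unadjusted p under 0.05 in limma, 5 of the 25 differed (20%), against 6.76% of all genes. These were Msmo1, Lss, Sqle and Nsdhl of the late steps and Fdps of the early ones, all higher in Jag1+/-Rfng+/-, a direction in which 2.98% of all genes lay past that threshold, with 3.79% in the other. In 0 of the 25 genes did the groups stay clear of each other, against 1.38% of all genes. In tissue samples such as these, fewer cells of a type and less RNA per cell cannot be told apart.

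Msmo1, the methylsterol oxidase that acts on the sterol nucleus after Cyp51, had the largest difference of the 25. It read 7.54, 5.96, 6.52, 6.83 and 7.06 on Jag1+/-Rfng+/- replicates 1 to 5, against 6.48, 5.42, 5.73, 6.35 and 6.05 on control replicates 1 to 5 (log2 levels). The difference was 0.78 ± 0.28 log2 (SE), 1.71-fold (limma adjusted p = 0.618). All Jag1+/-Rfng+/- arrays but replicate 2 were above the highest control. Nsdhl, the X-linked sterol dehydrogenase that acts next to Msmo1, read 7.23, 6.43, 6.47, 6.76 and 6.87 in Jag1+/-Rfng+/-, against 6.64, 6.02, 6.31, 6.53 and 6.14 in controls. It differed by 0.42 ± 0.17 (SE; limma adjusted p = 0.676). Replicates 1, 4 and 5 of Jag1+/-Rfng+/- were above all controls, and replicates 2 and 3 lay among them. Hsd17b7, the ketosteroid reductase of the same series of steps, averaged 5.80 ± 0.50 in Jag1+/-Rfng+/- and 5.38 ± 0.36 in controls (SD, n = 5 each; limma adjusted p = 0.776).

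Sqle acts on squalene and Lss on its epoxide, and each had a higher mean in Jag1+/-Rfng+/-. Sqle, the squalene epoxidase and a flux-controlling step, read 7.57, 7.39, 7.05, 7.54 and 7.35 in Jag1+/-Rfng+/-, against 6.99, 6.81, 7.12, 7.23 and 6.45 in controls. It differed by 0.46 ± 0.15 log2 (SE), 1.37-fold, and had the lowest adjusted p of the 25 (limma adjusted p = 0.597). Its Jag1+/-Rfng+/- arrays were above every control except for replicate 3. Lss, which folds squalene epoxide into lanosterol, read 7.03, 6.09, 6.44, 6.55 and 7.43 in Jag1+/-Rfng+/-, against 6.52, 6.04, 6.08, 6.32 and 5.88 in controls. It differed by 0.54 ± 0.23 (SE; limma adjusted p = 0.693). The spread was wider in Jag1+/-Rfng+/- (SD 0.53) than in controls (SD 0.25), with replicates 1 and 5 highest. Cyp51, the lanosterol demethylase, averaged 7.44 ± 0.37 in Jag1+/-Rfng+/- and 7.05 ± 0.36 in controls (SD, n = 5 each; limma adjusted p = 0.768).

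The other late enzymes differed little. Fdft1, the squalene synthase, averaged 7.68 ± 0.26 in Jag1+/-Rfng+/- and 7.51 ± 0.11 in controls (SD, n = 5 each). The sterol reductase gene Tm7sf2, the isomerase gene Ebp, the desaturase gene Sc5d and Dhcr7, whose product makes cholesterol in the last step of one branch, differed by 0.20, 0.09, 0.14 and 0.14 log2. The 95% intervals of these 5 genes all included 0 and reached at most 0.57 on the high side, for Tm7sf2.

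**Figure D1:**
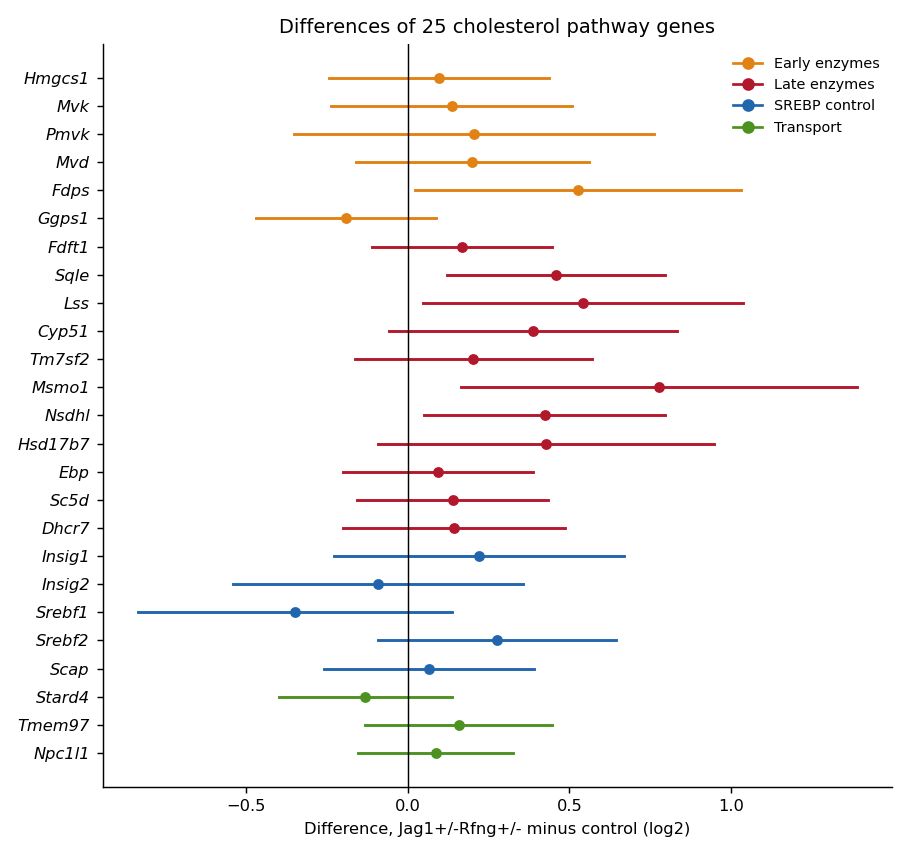
Difference of group means, Jag1+/-Rfng+/- minus control, in log2 on the horizontal axis for each of the 25 genes in pathway order, with bars for the 95% intervals of limma's fit, not adjusted over genes (n = 5 each). All 11 late enzymes lie right of 0, and the bars of Fdps, Sqle, Lss, Msmo1 and Nsdhl do not cross it.

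Of the 6 early enzyme genes 5 had a higher mean in Jag1+/-Rfng+/- and 1 a lower, with a median difference of 0.17 log2. Hmgcs1, which condenses acetyl units ahead of mevalonate, read 9.68, 9.39, 9.02, 9.48 and 9.13 in Jag1+/-Rfng+/-, against 9.50, 9.21, 8.87, 9.48 and 9.17 in controls. The groups overlapped almost fully, at a difference of 0.10 with a 95% interval of -0.24 to 0.44. Fdps, which makes farnesyl diphosphate at the end of the early pathway, read 7.41, 7.56, 7.15, 8.09 and 7.14 in Jag1+/-Rfng+/-, against 7.20, 6.79, 7.50, 6.94 and 6.31 in controls. It differed by 0.53 ± 0.23 log2 (SE), 1.44-fold (limma adjusted p = 0.709). Replicates 2 and 4 of Jag1+/-Rfng+/- were above all controls. The kinase genes Mvk and Pmvk and the decarboxylase gene Mvd, which carry mevalonate to isoprenoid units, differed by 0.14, 0.20 and 0.20, with intervals that all included 0. Ggps1, which draws farnesyl diphosphate off to geranylgeranyl diphosphate for protein prenylation, averaged 5.03 ± 0.18 in Jag1+/-Rfng+/- and 5.22 ± 0.22 in controls (SD, n = 5 each; limma adjusted p = 0.825). Whether the early and late medians of 0.17 and 0.39 differ was not tested.

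**Figure D2:**
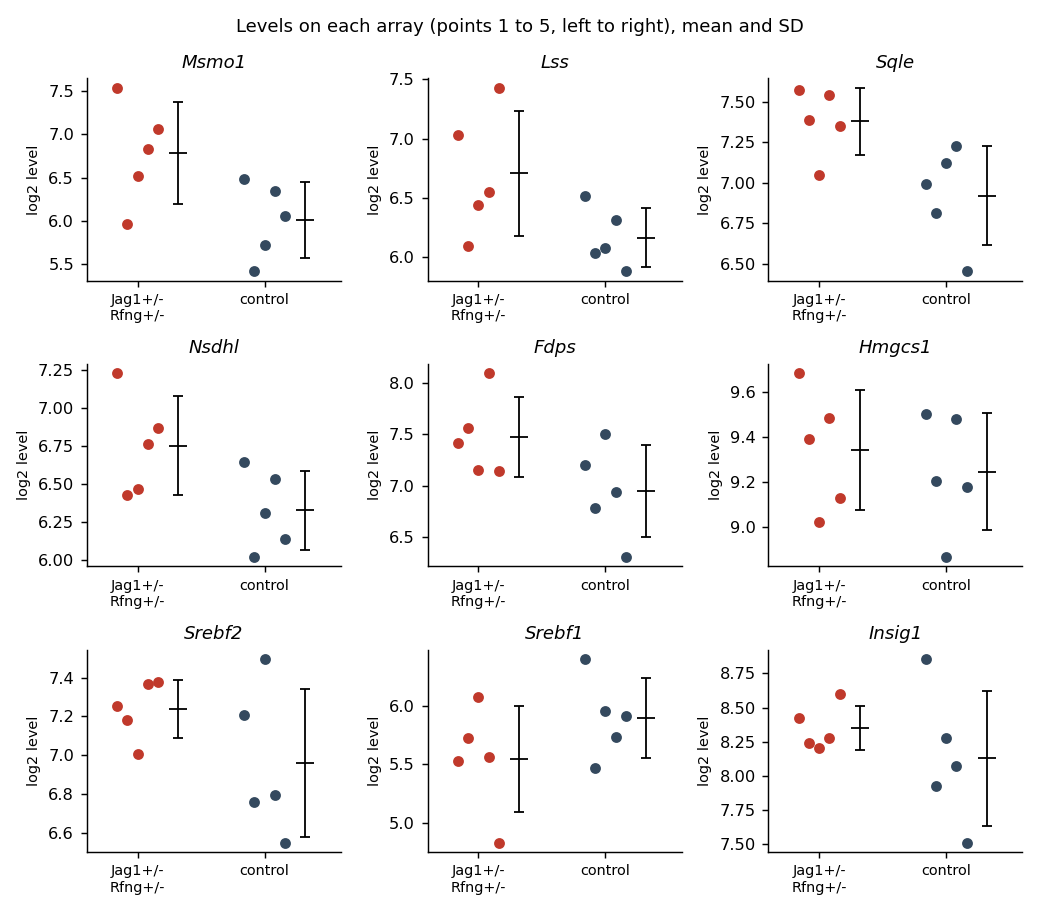
Log2 level (vertical axes, which do not start at 0) of 9 genes on each array, with Jag1+/-Rfng+/- replicates 1 to 5 left of control replicates 1 to 5 in every panel, and bars for mean and SD (n = 5 each). In Msmo1 and Sqle all Jag1+/-Rfng+/- arrays but 1 lie above the highest control, while those of Srebf1 lie among the controls or below them and those of Hmgcs1 among them but for replicate 1, which is higher.

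The SREBP control genes went both ways, with 3 higher and 2 lower means and a median difference of 0.06 log2, and 0 of 5 had an unadjusted p under 0.05 in limma. Srebf2, which encodes the SREBP that chiefly drives cholesterol genes, read 7.25, 7.18, 7.01, 7.37 and 7.37 in Jag1+/-Rfng+/-, against 7.21, 6.76, 7.50, 6.80 and 6.55 in controls. Control replicate 3 was the highest of all 10 arrays, and 3 controls lay below all Jag1+/-Rfng+/- arrays, at a difference of 0.28 ± 0.17 (SE; limma adjusted p = 0.798). Srebf1, whose product in liver chiefly drives fatty acid synthesis, read 5.53, 5.73, 6.08, 5.56 and 4.83 in Jag1+/-Rfng+/-, against 6.40, 5.47, 5.95, 5.73 and 5.91 in controls. Its difference of -0.35 ± 0.22 (SE; limma adjusted p = 0.815) was the lowest of the 25, and replicate 5 was the lowest array. Without that array the difference was -0.17, and Ggps1 was then lower at -0.23. Insig1, itself a target of SREBP that feeds back on it, read 8.42, 8.24, 8.20, 8.28 and 8.60 in Jag1+/-Rfng+/-, against 8.86, 7.93, 8.28, 8.07 and 7.51 in controls. Controls spread over a wider range (SD 0.49) than Jag1+/-Rfng+/- arrays (SD 0.16), which lay inside it. Insig2, which holds SCAP back as well but is not a target of SREBP in the same way, differed by -0.09 and Scap by 0.06, with 95% intervals of -0.54 to 0.36 and -0.26 to 0.39. Scap had a second, dimmer probe set, which differed by 0.19.

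Of the transport genes, 2 had higher means and 1 a lower, with a median difference of 0.09 log2 and 0 of 3 at an unadjusted p under 0.05 in limma. Tmem97, an endoplasmic reticulum protein gene that responds to sterols, averaged 6.83 ± 0.13 in Jag1+/-Rfng+/- and 6.67 ± 0.26 in controls (SD, n = 5 each). Stard4, a carrier of sterols between membranes, averaged 5.42 ± 0.20 in Jag1+/-Rfng+/- and 5.56 ± 0.17 in controls (SD, n = 5 each). Npc1l1, the sterol uptake protein known from the intestine, read 2.91 to 3.29 in Jag1+/-Rfng+/- and 2.72 to 3.11 in controls, at or just above the level of absent genes, so a difference in it could hardly be seen.

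The enzyme genes tended to be high or low together on an array, in both groups. Of the 17 enzyme genes, 16, 6, 6, 16 and 10 were above their own median over the 10 arrays on Jag1+/-Rfng+/- replicates 1 to 5, against 15, 1, 4, 11 and 0 on control replicates 1 to 5. Replicates 1 and 4 of Jag1+/-Rfng+/- and replicate 1 of the controls were thus high for nearly the whole pathway, and control replicates 2 and 5 low. Jag1+/-Rfng+/- replicate 1 was the highest array for 7 of the 11 late genes, and control replicate 2 the lowest for 7. Relative to the control means, the late genes had a median of 0.65, 0.11, 0.13, 0.42 and 0.43 log2 on Jag1+/-Rfng+/- replicates 1 to 5, against 0.31, -0.31, -0.07, 0.23 and -0.13 on control replicates 1 to 5. Control replicates 1 and 4 lay above Jag1+/-Rfng+/- replicates 2 and 3, so the groups overlapped. The early genes had medians of 0.36, -0.06, 0.02, 0.39 and 0.02 on Jag1+/-Rfng+/- replicates, against 0.25, -0.12, 0.12, 0.11 and -0.25 on controls. On Jag1+/-Rfng+/- replicate 5 the late median was high and the SREBP control median low (-0.37), the lowest of all arrays.

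**Figure D3:**
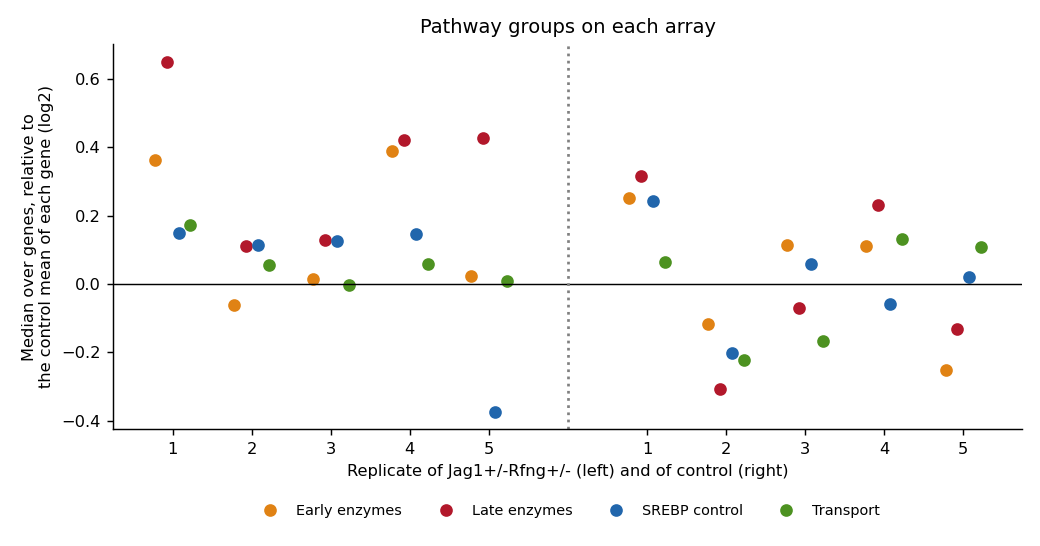
Median over the genes of each pathway group on each array, relative to each gene's control mean (log2, vertical axis), for Jag1+/-Rfng+/- replicates on the left and control replicates on the right of the dotted line. The late enzymes reach 0.65 on Jag1+/-Rfng+/- replicate 1 and -0.31 on control replicate 2.

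The count of 5 genes rested on few arrays. It fell to 2 without Jag1+/-Rfng+/- replicate 1 or without control replicate 2 (Sqle and Msmo1 each time), and to 3 without Jag1+/-Rfng+/- replicate 5 (Fdps, Sqle and Msmo1). Without control replicate 5 it was also 3, namely Sqle and Msmo1, both higher, and Ggps1, lower. It was 8 without Jag1+/-Rfng+/- replicate 3, with Srebf1 lower and the others higher. The sample names hold a number of unstated meaning, shared by 7 arrays (4 Jag1+/-Rfng+/- and 3 control), and among these 1 of the 25 genes, Msmo1, had an unadjusted p under 0.05, against 5.54% of all genes in that fit, with a late median of 0.28. No other number is found on more than 1 array, so none gives a value.

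Of the 6 cell type marker lists, those of portal fibroblasts and cholangiocytes had the largest lower means in Jag1+/-Rfng+/-. With limma 0 genes of any list passed the adjusted threshold. At an unadjusted p under 0.05 were 6 portal fibroblast genes (50%) and 8 cholangiocyte genes (80%), all lower, against 6.76% of all genes. So were 2 macrophage genes (18.2%) and 1 endothelial gene (11.1%), all higher, and 0 hepatocyte and 0 erythroid genes. The portal fibroblast list (12 of 13 genes measured) had means of 4.94 to 6.44 in Jag1+/-Rfng+/- and 5.81 to 6.81 in controls (log2 level), and the cholangiocyte list (10 of 12) had 4.46 to 5.05 in Jag1+/-Rfng+/- and 5.25 to 6.16 in controls. Of the fibroblast list 10 genes were lower in Jag1+/-Rfng+/-, and of the cholangiocyte list all 10 measured ones. Of the macrophage list 10 genes were higher and 1 lower. The hepatocyte list (17 of 18) had means of 9.93 to 10.07 in Jag1+/-Rfng+/- and 9.83 to 10.22 in controls, a difference of -0.04. Ttr of this list held the highest value on any array (12.47), so its brightest genes may lie near the upper limit. Differences may show less there, also in the fit with the hepatocyte mean below, and this was not tested. Relative to controls the fibroblast list lay at -1.32, -0.42, -0.82, 0.02 and -1.48 on Jag1+/-Rfng+/- replicates 1 to 5, against 0.04, 0.28, 0.39, -0.61 and -0.10 on control replicates 1 to 5. With the fibroblast mean as a covariate the late median was 0.16, against 0.39 without it, 13 of 17 enzyme genes were higher in Jag1+/-Rfng+/-, and 2 of the 25 genes had an unadjusted p under 0.05 (Fdps higher and Ggps1 lower), against 6.92% of all genes in that fit. With the hepatocyte mean as a covariate the late median was 0.42. In that fit 4 of the 25 genes had an unadjusted p under 0.05, against 7.57% of all genes. The macrophage list (11 of 11) had means of 6.55 to 7.48 in Jag1+/-Rfng+/- and 6.50 to 7.03 in controls, and the endothelial list (9 of 9) had 6.84 to 7.44 in Jag1+/-Rfng+/- and 6.81 to 7.16 in controls. The erythroid list (3 of 8) had means of 4.87 to 7.76 in Jag1+/-Rfng+/-, highest on replicate 5, and 4.63 to 5.56 in controls. The fibroblast mean itself differed between the groups by -0.81 (log2), so its covariate fit cannot tell it apart from the genotype. No fit used the cholangiocyte mean, which did not overlap between the groups. The part of the content of any of these cell types in the enzyme differences was not tested.

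**Figure D4:**
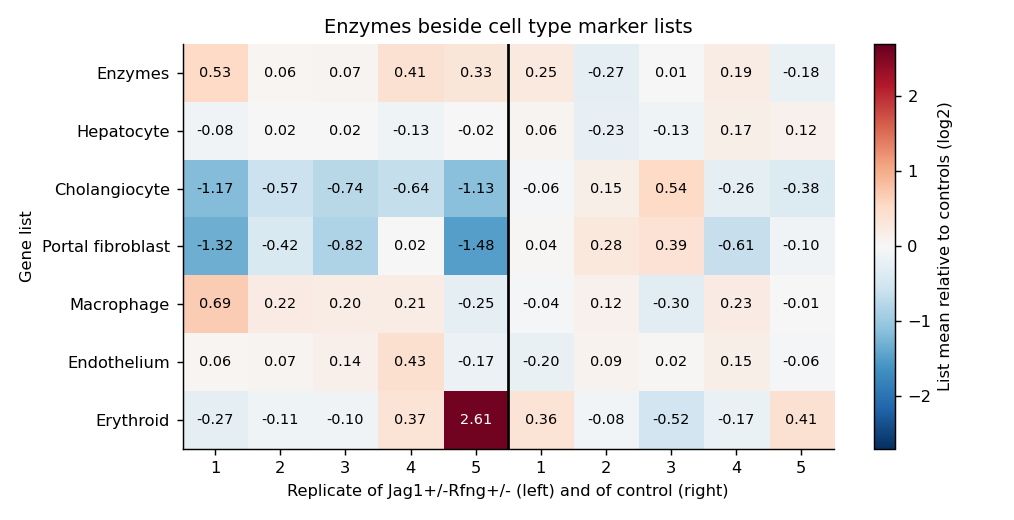
Mean of the 17 enzyme genes and of 6 cell type marker lists on each array relative to the control mean (log2, colour and number in each cell), with Jag1+/-Rfng+/- replicates left of the line and control replicates right of it. The hepatocyte list stays between -0.23 and 0.17, while the portal fibroblast list reaches -1.48 and the erythroid list 2.61 on Jag1+/-Rfng+/- replicate 5.

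Lists of neighbouring pathways had medians between -0.12 and 0.02 log2. A list of 17 measured genes covered fatty acid synthesis, the other branch under SREBP, and related lipid genes such as Gpam and Pnpla3. Of these, 6 had higher and 11 lower means in Jag1+/-Rfng+/-, with a median difference of -0.02 log2. With limma 0 passed the adjusted threshold, and at an unadjusted p under 0.05 there were 2 lower and 0 higher (11.8%). Acly, which supplies acetyl units from citrate, averaged 6.98 ± 0.16 in Jag1+/-Rfng+/- and 7.33 ± 0.31 in controls (SD, n = 5 each; limma adjusted p = 0.706). Acss2, which supplies them from acetate, averaged 4.00 ± 0.29 in Jag1+/-Rfng+/- and 4.53 ± 0.54 in controls (limma adjusted p = 0.718). These enzymes feed cholesterol synthesis too. Acacb, a carboxylase that limits fatty acid oxidation, differed by 0.19.

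A list of 13 measured genes covered SREBP processing, sterol uptake and sterol trafficking, with a few others such as Rdh11 and Aacs. Its median difference was 0.00 log2, and with limma 0 passed the adjusted threshold. At an unadjusted p under 0.05 there were 3 lower and 1 higher, 30.8% of this list, a larger share than the 20% of the 25 cholesterol genes and the 6.76% of all genes. The lower ones were Mbtps1 and Mbtps2, the proteases that cut SREBP in the Golgi, at -0.37 ± 0.15 and -0.36 ± 0.16, and Rnf139, a sterol-sensing ubiquitin ligase, at -0.45 ± 0.17 (log2, SE). Rdh11, a retinol dehydrogenase gene, differed by 0.35 ± 0.15. Their lowest adjusted p was 0.650 (limma). Npc2, a lysosomal sterol carrier, was chosen for mention with its values known, as was Mbtps2. The Npc2 groups did not overlap, at a difference of 0.15 ± 0.08 (SE; limma adjusted p = 0.771).

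Genes of sterol efflux and of isoprenoid use had medians near 0 or below. Among 10 measured genes of efflux and its control by liver X receptors the median difference was 0.02, with 0 at an unadjusted p under 0.05 in limma. Abcg5 and Abcg8, the paired exporters of sterols into bile, differed by -0.42 and -0.20, and Pltp, a phospholipid transfer protein gene, by 0.32. A list of 12 measured genes mostly covered the use of isoprenoids for prenylation, dolichol or ubiquinone, with a few others such as Fdx1. Of these, 10 had lower means, with a median of -0.12. With limma 0 passed the adjusted threshold and 1 had an unadjusted p under 0.05 (8.33%). That was Nus1, a subunit of the dolichol-making prenyltransferase, at -0.31 ± 0.11, and its partner gene Dhdds differed by -0.23 ± 0.12 (log2, SE). Rabggtb, a subunit of the enzyme that prenylates Rab proteins, differed by 0.87 ± 0.47.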

How the data were processed

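The authors deposited log2 expression values of 33649 probe sets on 10 single-colour arrays. Per the submitters' processing notes RMA and Partek 6.6 were used, in what role is not stated. RMA compresses the folds of dim genes, and no detection call was at hand. Gene symbols came from the platform annotation, in which 23521 probe sets have 1 symbol, 1814 several and 8314 none. All 25 measured members matched a RefSeq gene by Entrez identifier.

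Groups and replicate numbers came from the sample titles. A limma model (version 3.58.1, R 4.3.3) with group as its only term and moderated variances was fitted to all 22180 genes, two-sided, with Benjamini-Hochberg adjustment, a threshold of 0.05 and no filter on dim genes. The fit was tested on simulated data. A two-sided exact permutation test over 252 splits was run on Jag1, Rfng, the 25 members and the genes of the neighbouring lists. No pair of arrays held identical values.

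The members and lists were chosen with earlier results of these data known. All members were named, and of each neighbouring list the 3 genes with the lowest unadjusted p. Of each marker list the 2 genes with the highest mean were eligible for naming. Group medians are descriptions without a test. Promoter windows of opposite strands that overlap were checked against each other, and 1843 of 1843 pairs matched as reverse complements. The alternatives tried left out each array in turn or used a replicate block, the sample-name number, array weights, eBayes settings, other normalizations, a level filter, the mean of probe sets and marker covariates. Added after the data were seen were the arrays with the shared number without Jag1+/-Rfng+/- replicate 5.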

Additional observations from a re-analysis of the deposited data

Results flagged for a closer look

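For 3 of the 50 combinations of gene and group, 1 array lay far from the other 4 relative to the group's range, where chance gives about 1 in 20. Scap read 7.89 on Jag1+/-Rfng+/- replicate 5, against 8.42 to 8.47 on the other Jag1+/-Rfng+/- arrays. Mvk read 5.15 on control replicate 1, against 4.80 to 4.83 on the other controls. Npc1l1 read 2.72 on control replicate 2, against 3.02 to 3.11 on the other controls, all near the level of absent genes.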

How the results depend on the processing

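The count of members past an adjusted p of 0.05 was 0 in limma under all 23 alternatives, with a lowest adjusted p of 0.278 among them. The count at an unadjusted p under 0.05, which was 5, ranged from 2 to 8 when single arrays were left out. It was 1 within the 7 arrays that share a sample-name number (Msmo1), 1 there without Jag1+/-Rfng+/- replicate 5 (Ggps1, lower in Jag1+/-Rfng+/-), and 2 with the fibroblast covariate. With the replicate block it was 7, and the replicate numbers of the titles did not pair the samples. Correlations between deviations of arrays with the same replicate number ran from -0.23 to 0.06. Of the Jag1+/-Rfng+/- arrays, 1 of 5 correlated best with its own replicate number. The number in the sample names was not checked in this way. When single arrays were left out the late median ranged from 0.25 to 0.48, the early from 0.10 to 0.25, the SREBP control median from -0.02 to 0.16 and the transport median from 0.02 to 0.13. Of 574 member differences under the alternatives, 11 changed sign, all of members without an unadjusted p under 0.05 in the main fit. Of these members, Hsd17b7 and Srebf1 had such a p in some alternatives. When single arrays were left out, Mvk ranged from -0.0101 to 0.259, Scap from -0.0174 to 0.176 and Insig2 from -0.23 to 0.0493. With the fibroblast covariate Mvk, Hsd17b7, Dhcr7 and Npc1l1 turned, to -0.0311, -0.0495, -0.0868 and -0.0648. Within the 7 arrays Pmvk lay at -0.0495, and without Jag1+/-Rfng+/- replicate 5 there, Insig2 lay at 0.0479 and Srebf1 at 0.0718. The causes were not tested. Quantile, median and loess normalization changed the sign of 0 members.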
